A study of Homo sapiens with 16 samples.

Results

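The polypyrimidine tract binding proteins are encoded by 3 genes, PTBP1, PTBP2 and PTBP3, and the messenger RNAs of all 3 were counted in 2 cancer cell lines given indisulam, palbociclib or both. They were chosen by the log2 change of PTBP2 between indisulam and untreated A549 cells, the largest rise of any named gene with a mean of at least 5 CPM (counts scaled to the size of the library), and are 3 of the 58676 gene identifiers in the count files. All 3 were found by their Ensembl identifiers and passed the filter on low counts in both lines. A549 was derived from a human lung cancer. SUM159 comes from a human breast cancer that lacks the hormone receptors and HER2 amplification. Cells of each line were left untreated or were given 2 µM palbociclib, which inhibits the kinases CDK4 and CDK6, 3 µM indisulam, a sulfonamide that brings the splicing factor RBM39 to the DCAF15 ubiquitin ligase for degradation, or both drugs at those doses. Treatment lasted 16 h, and the labels do not say how long untreated cells were kept or whether they got a vehicle, which bears on every change against them. Each of the 8 groups held 2 libraries, which the study calls technical duplicates, so the p-values measure only the spread between such libraries and do not reach to independent cultures.

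PTB proteins bind pyrimidine-rich stretches of pre-mRNA and most often cause the nearby exon to be left out. PTBP1 is the form of most dividing cells, PTBP2 is best known from developing neurons, and PTBP3 (also called ROD1) was first described in blood cells. The genes are known to control one another. PTBP1 protein causes exon 10 of PTBP2 and exon 11 of its own transcript to be skipped, which shifts the reading frame and sends the mRNA to nonsense-mediated decay. The counts used here are sums over each whole gene and do not measure the use of any exon.

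The exon known for this control in PTBP1 and PTBP2, and the exon of the same length in PTBP3, are shown with their flanks because the members are known to act on one another there. It was 34 bases long in all 3 genes, a length that is no multiple of 3. The windows were read from GRCh38 in the direction of the transcript, with 100 bases of the upstream intron and 20 of the downstream intron in lower case and the exon in capitals. They lie at chr19:807769-807922 on the plus strand (PTBP1, exon 11), chr1:96806319-96806472 on the plus strand (PTBP2, exon 10) and chr9:112231360-112231513 on the minus strand (PTBP3, exon 10).
PTBP1: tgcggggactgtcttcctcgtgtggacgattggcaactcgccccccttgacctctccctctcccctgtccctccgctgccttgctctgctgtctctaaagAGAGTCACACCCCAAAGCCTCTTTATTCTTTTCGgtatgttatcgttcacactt
PTBP2: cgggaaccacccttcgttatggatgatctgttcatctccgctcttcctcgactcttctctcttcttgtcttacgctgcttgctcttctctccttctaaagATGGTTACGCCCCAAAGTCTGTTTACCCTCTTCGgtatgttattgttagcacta
PTBP3: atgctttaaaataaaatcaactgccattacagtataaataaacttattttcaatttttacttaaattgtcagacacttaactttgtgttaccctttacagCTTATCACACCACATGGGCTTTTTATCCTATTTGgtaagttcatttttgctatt

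The exons of PTBP1 and PTBP2 carried the same base at 25 of 34 positions, those of PTBP1 and PTBP3 at 22 and those of PTBP2 and PTBP3 at 21. The intron before the PTBP2 exon was the richest in pyrimidines, with 73 of 100 bases, a number reached before 1.52% of 163992 internal exons of reference transcripts. The PTBP1 intron held 69, as many as 4.11% of those exons, and the PTBP3 intron 56, as many as 47.9%. TCTT, a short motif that PTB proteins bind, occurred 6 times before the PTBP2 exon (as often before 0.16% of internal exons), 1 time before that of PTBP1 (at least 1 before 61.2%) and 0 times before that of PTBP3. CTCT, another such motif, occurred 6 times (0.516%), 4 times (3.1%) and 0 times. Both motifs were counted on the transcript strand with overlapping matches kept, and they can share bases with each other. In GENCODE release 44, 3 of 4 PTBP2 transcripts marked for nonsense-mediated decay lack this exon, as do 2 of 4 of PTBP1, while PTBP3 has 0 such transcripts.

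PTBP1 (ENSG00000011304) spans chr19:797075-812327, PTBP2 (ENSG00000117569) chr1:96721665-96823738 and PTBP3 (ENSG00000119314) chr9:112217716-112333664. Their reference transcripts have 15, 14 and 14 exons. None of the 3132, 3247 and 7118 stretches of 75 bases in these transcripts, the length of a read, occurred in a transcript of another gene. Only exact matches of the reference transcripts were checked. That of PTBP2 holds 3321 of the 20122 bases of its summed exons. PTBP1 shares 62 exon bases with the microRNA gene MIR4745 on its own strand, PTBP3 overlaps 4 small RNA genes or pseudogenes at 0 exon bases, and PTBP2 overlaps no gene.

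Libraries held 18306636 to 34075588 gene counts, so that 3 counts, taken as the smallest level that could be seen, stood for 0.0880 to 0.164 CPM. The chi-square per degree of freedom between duplicates was 1.59 to 9.13, above the value of about 1 that sampling noise alone gives. The libraries of a pair were thus not copies of one another, and libraries of different groups were not compared in this way. The group means of the keratin genes KRT8 and KRT18 were 4859 to 6938 and 4202 to 6597 CPM in A549, and that of the epithelial cadherin gene CDH1 was 54.46 to 99.33 CPM, while the lung marker NKX2-1 held 1 to 10 counts per library and the surfactant genes SFTPB and SFTPC were at or near 0. In SUM159 the hormone receptor gene ESR1 held 7 to 27 counts per library, PGR and CDH1 were at or near 0, ERBB2 averaged 99.7 to 145.0 CPM, and VIM, a mesenchymal filament gene, averaged 2765 to 4055 CPM. CDKN2A, which A549 is known to have lost, went against the labels. It held 24 to 56 counts in each A549 library and 0 or 1 in each SUM159 library, and why was not tested. The lines are named here as the labels give them.

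Without indisulam PTBP2 was the least abundant member per length, and it was the one that moved most with it. In A549 the untreated libraries held 23.67 and 23.45 CPM, the palbociclib libraries 18.41 and 17.98, the indisulam libraries 109.3 and 106.0 and those with both drugs 91.9 and 97.35. All 4 libraries with indisulam were thus far above all 4 without it, as the plot of levels by library shows. The log2 change with indisulam alone was 2.19 ± 0.06 (SE, n = 2 against 2), or 4.57-fold. This contrast chose the genes, so its values for all 3 members are given with no test, and nothing is read from the 49.2% of genes called in either direction there. Next in the same ranking came YY2, a zinc-finger gene related to YY1, at 2.15. One gene with no symbol but enough counts, ENSG00000235609, lay above PTBP2 at 3.03. In bulk RNA, fewer cells with a transcript and less transcript per cell cannot be told apart.

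**Figure D1:**
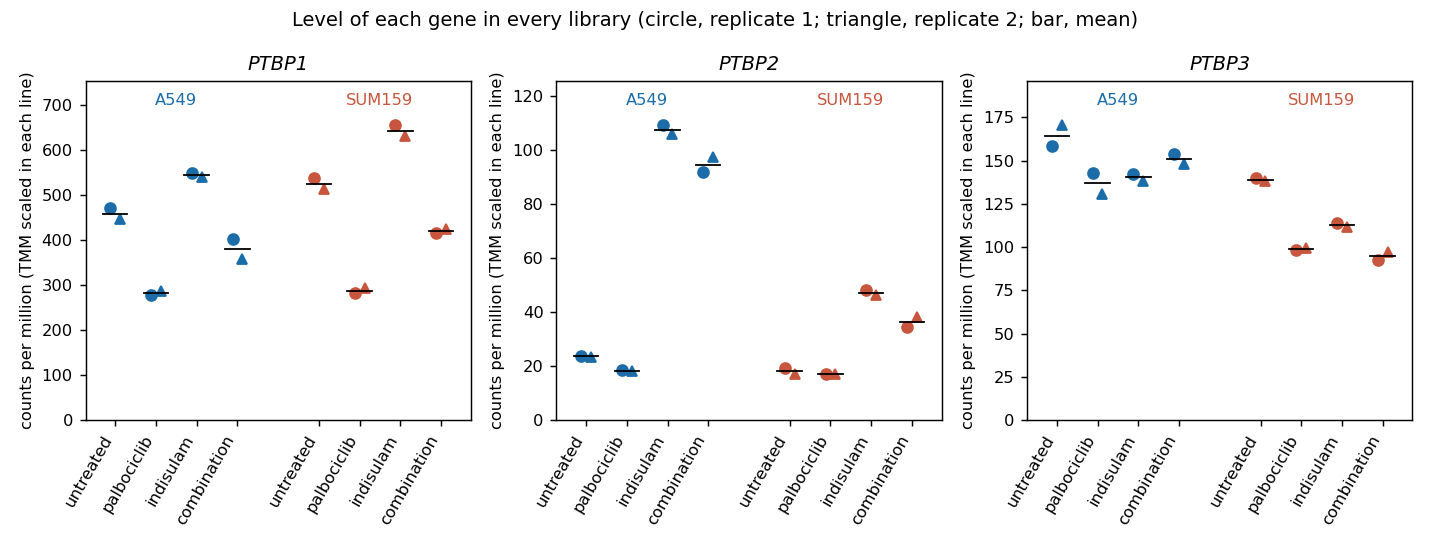
Level of PTBP1, PTBP2 and PTBP3 in CPM (vertical axis, TMM-scaled within each line) in each of the 16 libraries, by line and treatment, with the mean of each pair as a bar. PTBP2 with indisulam sits at 91.9 to 109.3 CPM in A549 and at 34.46 to 48.08 in SUM159, above all libraries without it, whereas PTBP1 is lowest with palbociclib alone in both lines.

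Indisulam added to palbociclib in A549 gave a test of PTBP2 in libraries that played no part in its choice. PTBP2 rose 5.21-fold, a log2 change of 2.38 ± 0.06 (SE, n = 2 against 2, edgeR adjusted p = 2.43e-12). A higher call was made for 23.7% of the 15744 genes tested in that comparison, where the median log2 change of all genes was -0.01. PTBP2 lay at percentile 99.7 of the changes.

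SUM159 gave a second set of libraries apart from the choice. Here PTBP2 was read at 19.29 and 17.05 CPM in untreated cells, at 17.03 and 16.95 under palbociclib, at 48.08 and 46.31 under indisulam and at 34.46 and 38.34 under both. The untreated and palbociclib libraries nearly met, the combination libraries stood apart above them, and the indisulam libraries were the highest. PTBP2 rose with indisulam by 1.38 ± 0.07 on the log2 scale (2.60-fold, n = 2 against 2, adjusted p = 2.68e-10), in a comparison where 21.9% of 16080 genes were called higher. Added to palbociclib, indisulam raised it by 1.10 ± 0.07 (2.14-fold, adjusted p = 2.04e-09), beside 23.4% of all genes called higher.

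The rise of PTBP2 with indisulam was smaller in SUM159 than in A549. PTBP2 was chosen for its rise in A549, which by itself favours a smaller rise in the other line. The test below uses other libraries but is not free of that choice. For indisulam added to palbociclib, the difference between the lines (SUM159 minus A549) was -1.32 ± 0.09 on the log2 scale (95% interval -1.51 to -1.12, adjusted p = 7.53e-10), and a lower call was made for 10.8% of 17764 genes. For indisulam alone the difference was -0.81, which uses the libraries that chose the gene and was not tested. Untreated SUM159 cells held 0.51 less PTBP2 than untreated A549 cells on the log2 scale (-0.51 ± 0.08), likewise with no test.

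Palbociclib alone moved PTBP2 little in SUM159, and its log2 changes were negative in A549 and on top of indisulam. In SUM159 the log2 change was -0.10 ± 0.08 (95% interval -0.27 to 0.08, adjusted p = 0.331). Scaling to total counts turned its sign, to 0.01, and the change was -0.0015 without untreated replicate 1 and -0.19 without untreated replicate 2. In A549 it was -0.38 ± 0.07, with no test because the untreated libraries had served to choose the gene. Given on top of indisulam in SUM159, palbociclib lowered PTBP2 by a log2 change of -0.38 ± 0.06 (adjusted p = 6.07e-05), in a comparison with 28% of genes called lower. The same step in A549 gave -0.19 ± 0.05, not tested. With both drugs against untreated cells PTBP2 rose by 1.00 ± 0.07 in SUM159 (adjusted p = 2.8e-09, 32.2% of genes called higher) and stood 2.01 ± 0.06 higher in A549, not tested.

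PTBP1, the member that dividing cells rely on, moved in opposite directions with the drugs. Untreated A549 libraries held 470.5 and 445.3 CPM, those given palbociclib 276.6 and 286.0, those given indisulam 547.8 and 540.1 and those given both 401.5 and 357.0. In SUM159 it was at 536.9 and 512.4, at 282.8 and 292.2, at 654.6 and 629.7 and at 414.2 and 423.7 in the same order. The groups of a line did not overlap, and their order was the same in both lines, from palbociclib through the combination and untreated to indisulam.

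Palbociclib lowered PTBP1 by a log2 change of -0.70 ± 0.05 in A549 (1.63-fold lower, adjusted p = 5.43e-08) and of -0.87 ± 0.04 in SUM159 (1.83-fold lower, adjusted p = 4.54e-12). Lower calls were made for 21.1% and 29% of all genes in these comparisons. The difference between the lines was -0.07 ± 0.07 (adjusted p = 0.582, 95% interval -0.20 to 0.07). It came from the fit of both lines, where the median difference over all genes was 0.08. The PTBP1 difference was -0.29 without A549 untreated replicate 1 and -0.27 without A549 palbociclib replicate 1, and was then called. Indisulam alone raised PTBP1 in SUM159 by 0.29 ± 0.04 (1.22-fold, adjusted p = 6.5e-06), and in A549 its log2 change was 0.25 ± 0.05, given with no test.

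Added to palbociclib, indisulam raised PTBP1 by 0.43 ± 0.05 on the log2 scale in A549 (1.35-fold, adjusted p = 7.51e-06) and by 0.54 ± 0.04 in SUM159 (1.46-fold, adjusted p = 5.51e-09). The difference between the lines was 0.08 ± 0.07 (95% interval -0.05 to 0.22, adjusted p = 0.427), and without A549 combination replicate 1 it was 0.19 and was called. With both drugs PTBP1 stayed below untreated cells, by a log2 change of -0.27 ± 0.05 in A549 (adjusted p = 0.00036, 30.4% of genes called lower). In SUM159 that change was -0.32 ± 0.04 (adjusted p = 7.27e-07, 33.1% of genes called lower). Palbociclib on top of indisulam gave -0.52 ± 0.05 (adjusted p = 1.6e-06) and -0.62 ± 0.04 (adjusted p = 3.67e-10), beside 20.1% and 28% of genes called lower.

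PTBP3 fell with palbociclib in both lines and with indisulam in SUM159. The A549 levels were 158.6 and 170.5 CPM in untreated cells, 142.9 and 131.0 under palbociclib, 142.4 and 138.5 under indisulam and 153.7 and 147.9 under both drugs. The palbociclib and indisulam libraries overlapped, and the untreated ones were the highest. In SUM159 the levels were 139.7 and 138.3, then 98.22 and 99.32, then 114.2 and 111.9, then 92.56 and 97.0. Here all 3 treated groups stood below the untreated one.

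With palbociclib the log2 change of PTBP3 was -0.27 ± 0.05 in A549 (1.20-fold lower, adjusted p = 0.000713) and -0.49 ± 0.04 in SUM159 (1.41-fold lower, adjusted p = 1.6e-08). The difference between the lines missed the threshold (-0.13 ± 0.07, adjusted p = 0.232, 12.8% of genes called in either direction). The median difference over all genes in that fit was 0.08. The PTBP3 difference was called, however, under the DESeq2 size factors (-0.23) and without any 1 of the A549 untreated or palbociclib libraries (-0.34 to -0.25). Indisulam alone lowered PTBP3 in SUM159 by a log2 change of -0.30 ± 0.04 (1.23-fold lower, adjusted p = 1.07e-05, 24.9% of genes called lower), and the A549 value was -0.23 ± 0.05, not tested. Both drugs together lowered it in SUM159 by -0.55 ± 0.04 (1.47-fold lower, adjusted p = 2.13e-09). In A549 the same comparison gave -0.13 ± 0.05 (adjusted p = 0.0487), a call that was lost under 5 of the other ways of processing and without A549 untreated replicate 2 (-0.07) or A549 combination replicate 2 (-0.11). The combination effect differed between the lines by -0.36 ± 0.07 (adjusted p = 0.00017), where 11.8% of genes were called lower and the median over all genes was 0.10. Without A549 untreated replicate 2 the difference was -0.55.

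In the step from palbociclib to the combination PTBP3 changed least. In SUM159 its log2 change was -0.06 ± 0.04 (95% interval -0.14 to 0.02, adjusted p = 0.224). In A549 it rose by 0.14 ± 0.05 (1.10-fold, adjusted p = 0.0313), but without A549 palbociclib replicate 2 (0.08) or A549 combination replicate 1 (0.13) it was no longer called. The difference between the lines was -0.23 ± 0.07 (adjusted p = 0.0132), and it was lost without either of these A549 libraries (-0.16 and -0.18) or SUM159 combination replicate 1 (-0.21). Palbociclib on top of indisulam lowered PTBP3 in SUM159 by -0.26 ± 0.04 (adjusted p = 4.07e-05), while in A549 its log2 change was 0.10 ± 0.05 (95% interval -0.01 to 0.21, adjusted p = 0.13).

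**Figure D2:**
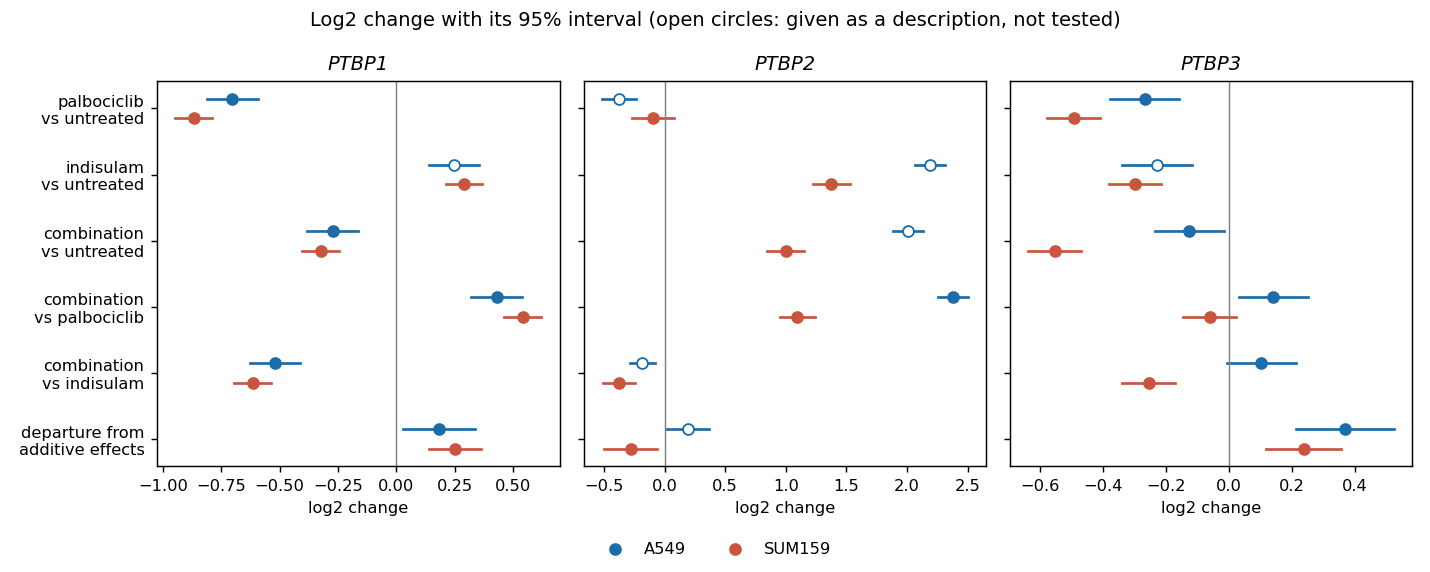
Log2 change (horizontal axis) of each member in 6 comparisons within A549 and SUM159, with 95% intervals as lines and untested values as open circles. PTBP2 lies at 2.38 in A549 and 1.10 in SUM159 for the combination against palbociclib, while PTBP1 is below 0 wherever palbociclib is added and PTBP3 stays between -0.55 and 0.37.

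The combination was also set against the sum of both single-drug log2 changes. PTBP1 and PTBP3 exceeded that sum in SUM159, by 0.25 ± 0.05 (adjusted p = 0.0124) and 0.24 ± 0.06 (adjusted p = 0.0236), and PTBP3 did in A549, by 0.37 ± 0.07 (adjusted p = 0.0139). Higher calls of this kind were made for 2.22% of genes in SUM159 and 1.49% in A549. PTBP1 in A549 gave 0.18 ± 0.07 (adjusted p = 0.186), or 0.29 and a call without A549 combination replicate 2, and PTBP2 in SUM159 -0.28 ± 0.10 (95% interval -0.50 to -0.06, adjusted p = 0.137). For PTBP3 in A549 the call was lost without untreated replicate 2 (0.32), palbociclib replicate 2 (0.31), indisulam replicate 1 (0.39) or indisulam replicate 2 (0.35). In SUM159 that of PTBP1 was lost without untreated replicate 1 (0.21), indisulam replicate 2 (0.21) or combination replicate 2 (0.23), and that of PTBP3 without untreated replicate 1 (0.22) or 2 (0.24), indisulam replicate 1 (0.25) or 2 (0.21) or combination replicate 2 (0.20).

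Ratios of raw counts within a library do not depend on how libraries are scaled. For every 100 counts of PTBP1, untreated A549 libraries held 5.03 and 5.26 counts of PTBP2, those given palbociclib 6.66 and 6.29, those given indisulam 19.95 and 19.62 and those given both 22.89 and 27.27. In SUM159 the same ratio was 3.59 and 3.33, then 6.02 and 5.80, then 7.35 and 7.36, then 8.32 and 9.05. The 4 treatments kept the same order in both lines, with no overlap between groups of a line, and the ratio was highest with both drugs. From indisulam to both drugs PTBP2 itself fell, from 107.63 to 94.63 CPM in A549 and from 47.20 to 36.40 in SUM159. PTBP1 fell too, from 543.93 to 379.29 and from 642.14 to 418.99 CPM. For PTBP3 the ratio ran from 25.64 (A549 with indisulam) to 51.66 (A549 with palbociclib) and from 17.45 to 34.73 in the same groups of SUM159.

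**Figure D3:**
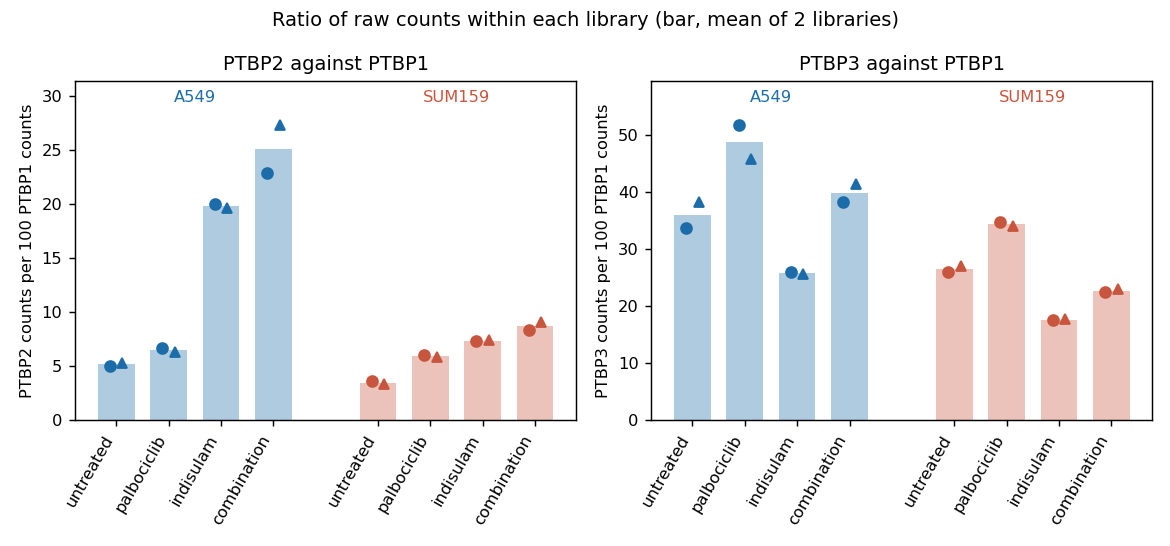
Counts of PTBP2 (left) and PTBP3 (right) per 100 counts of PTBP1 in each library, with bars for the mean of 2 libraries. PTBP2 reaches 22.89 and 27.27 in A549 with both drugs and 8.32 and 9.05 in SUM159, while PTBP3 is highest with palbociclib alone in both lines.

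Levels of different genes can be set side by side only per length. On the level per kilobase of summed exons, PTBP2 made up 1.43% ± 0.01 (SD, n = 2) of the 3 genes together in untreated A549, 5.65% ± 0.05 with indisulam and 6.42% ± 0.65 with the combination. In SUM159 these shares were 1.03% ± 0.06, 2.31% ± 0.00 and 2.62% ± 0.14. PTBP1 was the main member in every group, with 68.09% to 84.16% of the level per kilobase. The share depends on the length used, since the summed exons of PTBP2 measure 20122 bases and its coding part 1635. With the length of the reference transcript, PTBP2 (14.62%) stood above PTBP3 (8.81%) in A549 with indisulam. The same held in A549 with both drugs (17.03% and 12.5%), and the other lengths gave this order in neither group.

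Across all 8 groups, with libraries of both lines scaled together, PTBP2 ran from 16.89 CPM in SUM159 with palbociclib to 111.5 in A549 with indisulam. Among its neighbours in that order only the lowest pair, SUM159 with palbociclib and SUM159 untreated, overlapped. PTBP1 ran from 285.9 CPM in SUM159 with palbociclib to 607.4 in SUM159 with indisulam, and its order followed the treatment rather than the line, with the lines overlapping within palbociclib, within the combination and within untreated cells. PTBP3 ordered by line, with the means of all 4 SUM159 groups (94.08 to 131.2 CPM) below those of all 4 A549 groups (139.5 to 170.2 CPM). The gap between single libraries was narrow, from 131.5 in untreated SUM159 to 133.6 in A549 with palbociclib. Scaled to total counts, these libraries stood at 131.7 and 132.6. In untreated cells PTBP3 was lower in SUM159 by a log2 difference of -0.37 ± 0.05 (adjusted p = 9.98e-08, 38% of genes called lower), and for PTBP1 the difference was 0.06 ± 0.05 (95% interval -0.03 to 0.16, adjusted p = 0.207), or 0.19 and a call without A549 untreated replicate 1.

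Genes that act with the PTB proteins were read from a list of 10 cofactors and regulators, of which 9 were tested. SRRM4, a neuronal factor that acts against PTBP1 at exons, was at 0 to 2 counts in every library. Indisulam raised 5 and lowered 2 of the 9 in SUM159 (median log2 change 0.18, against 0.01 over all genes), where 21.9% of all genes were called higher and 24.9% lower. Added to palbociclib it raised 5 and lowered 1 in A549 (median 0.16) and raised 7 and lowered 1 in SUM159 (median 0.25), where 27.8% and 24.9% of all genes were called lower and 23.7% and 23.4% higher. HNRNPL, an RNA-binding protein that often acts on the same exons as PTBP1, rose by 1.49 in A549 and 0.58 in SUM159 in that step. RBM39, the protein that indisulam removes, rose at the mRNA level by 1.17 and 1.05 in the same step. HNRNPH1, which binds G-rich RNA, changed by -0.51 and -0.46 and was called lower in both. With palbociclib alone 6 of the 9 fell in A549 and 8 in SUM159, beside 21.1% and 29% of all genes called lower, and the others were not called. MATR3, a partner of PTBP1, has 2 overlapping identifiers with the same symbol, and the one read here held 24 to 90 counts, so its value is uncertain.

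Genes known to be held down by PTB proteins at the mRNA level, most of them neuronal, moved both ways in SUM159. Of 7 tested, indisulam raised 3 and lowered 3 in SUM159 (median log2 change 0.18). Added to palbociclib it lowered 4 in A549, with the other 3 not called (median -0.41), and raised 1 and lowered 2 in SUM159 (median -0.06). The shares of all genes called higher and lower were 21.9% and 24.9% for indisulam in SUM159, 23.7% and 27.8% for the added step in A549 and 23.4% and 24.9% in SUM159. GABBR1, a GABA receptor gene, rose by 0.76 with indisulam in SUM159 and changed by -0.73 (called lower) when indisulam was added in A549. DLG4, the scaffold protein PSD-95 and a well-known PTBP target, was called in none of these 3 comparisons (0.18, -0.13 and 0.18). With palbociclib alone, DLG4 was called higher in SUM159 (0.47) and was not called in A549 (0.205). The median log2 change of the 7 with palbociclib was 0.47 in SUM159, against 0.02 over all genes. In A549 that median was 0.01, against 0.03 over all genes.

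Genes known as targets by choice of exon, whose total counts do not show which exon was used, moved both ways in both lines. Of 10 tested, 4 rose and 3 fell with indisulam in SUM159, and in the step from palbociclib to the combination 3 rose and 2 fell in A549 and 4 rose and 4 fell in SUM159. The A549 counts, 3 and 2 of 10, lay near the shares over all genes, 23.7% higher and 27.8% lower, and in SUM159 those shares were 21.9% and 24.9% for indisulam and 23.4% and 24.9% for the added step. TPM1, a tropomyosin gene, was called lower in all 3 (-0.30, -0.54 and -0.34), as was ACTN1, an actinin gene (-0.24, -0.49 and -0.18). PKM, the pyruvate kinase gene whose choice of exon PTBP1 controls, was called lower in SUM159 (-0.19 and -0.13) and was at 0.00 in A549.

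**Figure D4:**
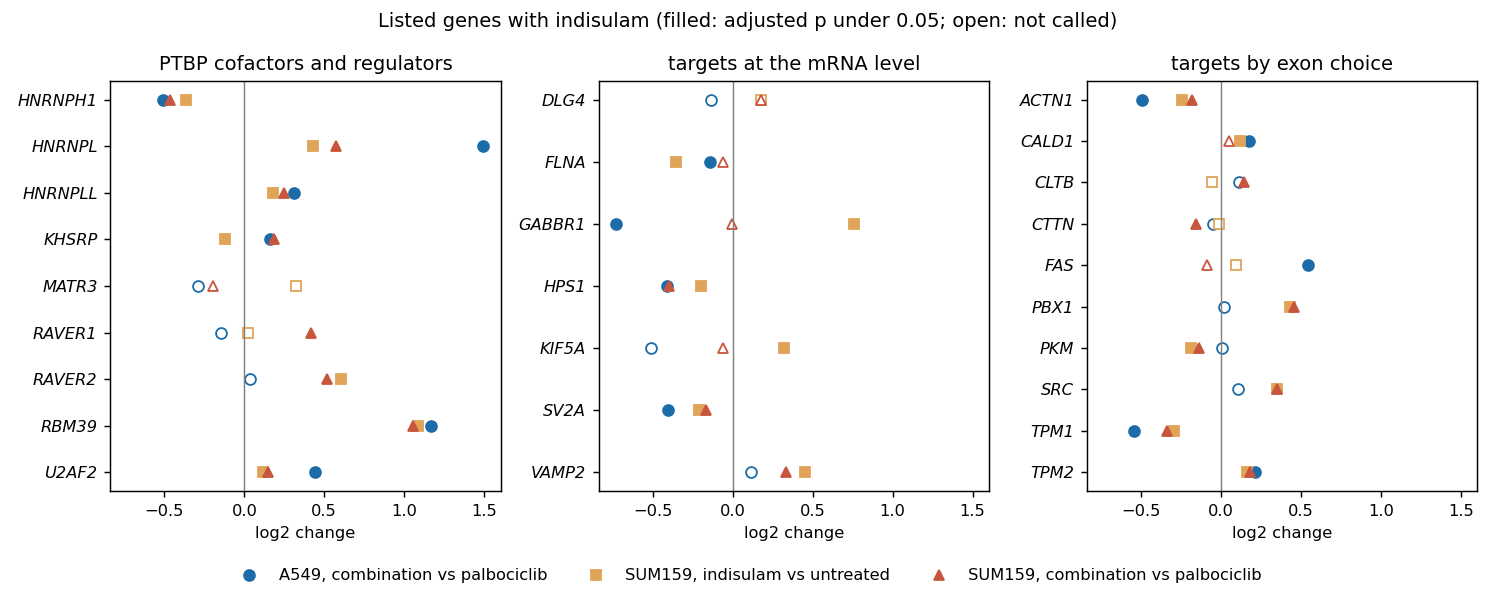
Log2 change (horizontal axis) of the listed genes with indisulam in 3 comparisons, filled where the adjusted p was under 0.05. HNRNPL reaches 1.49 in A549 and RBM39 lies between 1.05 and 1.17 in all 3, while the target genes spread to both sides of 0.

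Because PTBP2 is best known from neurons, markers of neurons were read in the same libraries. The summed level of 8 markers was 42.58 to 46.05 CPM in untreated A549 and 43.35 to 46.27 with indisulam, and in SUM159 it was 118.6 to 127.4 and 101.4 to 103.7. The sum thus overlapped between these A549 groups and was lower with indisulam in SUM159, where PTBP2 was higher. Single markers went both ways in A549: RBFOX3 averaged 4.0 CPM untreated and 1.06 with indisulam, and SYT1 6.82 and 9.62. Most of the SUM159 sum was MAP2, at 116.1 CPM untreated and 93.94 with indisulam (called lower), whereas TUBB3 rose by 0.73 (adjusted p = 0.00514) and the median log2 change of the 5 markers tested was 0.15. With palbociclib the sum was 62.3 to 63.4 in A549 and 218.9 to 220.4 in SUM159, and with both drugs 60.75 to 62.6 and 173.2 to 173.6. MAP2 averaged 207.3 CPM of the SUM159 sum with palbociclib. In A549 palbociclib took NEFL from 13.8 to 24.3 CPM and SNAP25 from 7.69 to 5.66. Of 7 markers tested there, 4 were called higher and 1, SNAP25, lower (median log2 change 0.51, against 0.03 over all genes). In SUM159 3 of 5 were called higher with palbociclib and 0 lower (median 0.63, against 0.02). Of the calls over all genes in these comparisons, 51.1% and 46.8% were higher. ELAVL3 was at or near 0 throughout, and RBFOX3 and NEFL were at or near 0 in SUM159.

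The genes whose pattern was most like that of each member were found among 9617 genes by Pearson's r of log2 CPM centred within each line, over 16 libraries that share depth and scaling. For PTBP2 they were PRPF39, a splicing factor of the U1 particle (r = 0.994), ZNF544, a zinc-finger gene (r = 0.990), and NUDCD3, a chaperone partner (r = 0.988). With indisulam added to palbociclib PRPF39 changed by 1.22 in A549 and 0.64 in SUM159, ZNF544 by 1.02 and 0.66 and NUDCD3 by 0.74 and 0.40. For PTBP1 they were CARHSP1 (r = 0.988), BICD2 (r = 0.984) and MCM9 (r = 0.984), a helicase of DNA repair. For PTBP3 they were the transcription factor gene SP1 (r = 0.958), LARP4 (r = 0.938) and PIGU (r = 0.935). Between the members themselves r was 0.56 for PTBP1 and PTBP2, 0.44 for PTBP1 and PTBP3 and -0.18 for PTBP2 and PTBP3. These values describe the libraries and were not tested.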

How the data were processed

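Reads per Ensembl gene had been counted by the authors in each of 16 libraries, and the deposited values are raw counts with no normalisation. Per the study's methods and processing notes, strand-specific poly(A) libraries were read as pairs of 75 bases, trimmed with SeqPurge, aligned to GRCh38 with HISAT2 2.2.1 and counted with HTSeq. The strand setting and annotation release of the counting are not given in the sources used here. Reads without a gene were left out.

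Groups were taken from the sample labels. The members and gene lists were chosen with earlier results of these data known, and 1 gene of the list of targets at the mRNA level is not reported here. GENCODE release 44 gave symbols, lengths and exons (58207 of 58676 identifiers matched). Named genes were the 3 members, the listed genes, the gene next to PTBP2 in the ranking that chose it (it had to have a symbol, an average of 5 CPM or more, an adjusted p below 0.05 and one direction in the pairs of equal number) and, for each member, the 3 genes of highest r. ENSG00000235609 was named after its value was seen.

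Counts were fitted in edgeR 4.0.16 (R 4.3.3) with 1 coefficient per group, for the 8 libraries of each line and, between lines, for all 16. Genes were kept by filterByExpr, libraries scaled by TMM, and changes tested by the quasi-likelihood F test, with p-values adjusted by Benjamini and Hochberg over all genes (threshold 0.05). Standard errors (SE) and 95% intervals were derived from each F statistic and its change. Tests that used A549 untreated or indisulam libraries were left out for PTBP2, and the contrast of these groups for all members. On counts simulated for the combination against palbociclib, with 200 genes changed by 1 on the log2 scale, 100% were recovered among 15744 genes of A549 and 98% among 16080 of SUM159, with 4.76% and 4.39% of calls false. These rates do not carry over to smaller changes or to comparisons where many more genes were called. Floors cover counting error only. Alternatives were scaling to total counts, DESeq2 size factors (RLE), DESeq2 1.42.0, no filter, a replicate block, only the groups compared and leaving out each library. The share by reference transcript length was added after the data were seen.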

Additional observations from a re-analysis of the deposited data

Results flagged for a closer look

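The change of PTBP2 when indisulam was added to palbociclib differed between the lines by the interaction test in edgeR, with a log2 difference of -1.315 (SUM159 minus A549, adjusted p = 7.53e-10). PTBP2 rose in both lines, by 2.38 in A549 and by 1.10 in SUM159, and the difference ran from -1.39 to -1.24 over the alternatives tried. Since PTBP2 was chosen for its rise in A549, the choice favoured the sign of this difference.

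PTBP3 differed between the lines in the same step by -0.2332 (adjusted p = 0.0132), with 0.14 in A549 and -0.06 in SUM159. That difference ran from -0.27 to -0.16 when 1 library was left out, and its call was lost without some of them, as given above. PTBP3 also differed in the effect of the combination against untreated cells, by -0.3611 (adjusted p = 0.00017), with -0.13 in A549 and -0.55 in SUM159. This second difference ran from -0.5532 to -0.3346 when 1 library was left out.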

How the results depend on the processing

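The duplicates are technical and few, the strand setting of the counting is unknown, and gene counts hold no isoform. The tested PTBP2 rises kept their call under every alternative run: 2.35 to 2.44 for the combination against palbociclib in A549, 1.29 to 1.47 for indisulam and 1.02 to 1.17 for the combination against palbociclib in SUM159, and -1.39 to -1.24 for the difference between lines in that step. With total-count scaling the median log2 change over all genes went up by 0.105 for palbociclib and by 0.149 for the combination against untreated SUM159 cells. It also raised the share of higher calls, from 51.1% to 62.4% for palbociclib in A549, from 46.8% to 62.5% in SUM159 and from 46.8% to 57.9% for indisulam in SUM159. The fit of both lines shifts with its scaling, and RLE moved the share of higher calls in the line difference for palbociclib from 75.4% to 44%. Unless a value above shows otherwise, the cause of a shift was not tested.

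With total counts PTBP2 gave 0.0082 for palbociclib in SUM159 (opposite sign), -0.32 for palbociclib and 2.09 for the combination against untreated A549 cells, PTBP3 gave 0.16 for the combination against indisulam in A549 (called), and PTBP1 gave 0.16 between untreated lines (called). PTBP3 lost its call for the combination against untreated A549 cells with total counts (-0.0378), RLE (-0.12), DESeq2 (-0.12) and only the groups compared (-0.12). DESeq2 also ended the call of PTBP3 for the combination against palbociclib in A549 (0.16). RLE and DESeq2 gave -0.0723 for the line difference of PTBP1 with the combination (opposite sign) and -0.23 for that of PTBP3 with palbociclib (called). Without the filter the departure from additive effects was 0.19 for PTBP1 in A549 (called) and 0.20 for PTBP3 in SUM159 (not called). Genes departing from additivity numbered 556 in A549, with 998 without the filter and 343 by DESeq2, and 704 in SUM159, with 439 by DESeq2.

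Counts of listed genes in SUM159 with indisulam moved as well: cofactors called higher from 5 to 3 with DESeq2 and called lower from 2 to 1 with total counts, and targets at the mRNA level called lower from 3 to 1 with total counts. Of these targets, those called lower when indisulam was added to palbociclib went from 4 to 2 in A549 with DESeq2 or only the groups compared, and from 2 to 1 in SUM159 with total counts or DESeq2, where total counts also took those called higher from 1 to 2.

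Same-numbered libraries did not deviate together (correlations of -0.114 to 0.114). With the replicate number as a block, PTBP3 lost its call for the combination against untreated A549 cells (-0.13), no other member changed its call, and genes departing from additivity numbered 470 in each line.

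Leaving out each library in turn, the departure from additivity was 0.14 to 0.29 for PTBP1, 0.17 to 0.27 for PTBP2 and 0.31 to 0.43 for PTBP3 in A549, and 0.21 to 0.28 for PTBP1 and 0.20 to 0.27 for PTBP3 in SUM159, with 52 to 976 and 207 to 941 genes called. PTBP3 in A549 gave 0.0835 to 0.21 against palbociclib and -0.18 to -0.071 against untreated cells for the combination. Differences between lines ran, for PTBP1, from 0.0166 to 0.19 for indisulam added to palbociclib, -0.29 to -0.0417 for palbociclib, -0.22 to 0.0403 for the combination and 0.0385 to 0.19 untreated. They ran, for PTBP2, from 0.19 to 0.46 for palbociclib and -1.13 to -0.86 for the combination and, for PTBP3, from -0.27 to -0.16 for indisulam added to palbociclib, -0.34 to -0.12 for palbociclib and -0.55 to -0.33 for the combination. PTBP2 with palbociclib in SUM159 ran from -0.19 to -0.0015. For PTBP1 with the combination the sign turned without A549 untreated replicate 1 (-0.18) or 2 (-0.09), A549 combination replicate 1 (-0.04) or 2 (-0.22), SUM159 untreated replicate 2 (-0.02) or SUM159 combination replicate 2 (-0.0038).

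By coding length and by reference transcript length, PTBP2 made up 3.99% and 4.11% of the family level in untreated A549, 4.55% and 4.88% under palbociclib, 14.8% and 14.6% under indisulam and 16.4% and 17.0% under both. In SUM159 it made up 2.93% and 2.90%, 4.61% and 4.71%, 6.47% and 6.17%, and 7.25% and 7.08%.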
